A study of Mus musculus with 2 samples.

Results

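Mir103-1, Mir103-2 and Mir107 are the mouse genes of the miR-103 and miR-107 family, and each lies in an intron of a pantothenate kinase (Pank) gene. They were chosen by their symbols in the GENCODE M21 annotation and are 3 of the 2202 microRNA (miRNA) genes counted. Small RNAs, in a size range labelled as below 30, were sequenced from total RNA of the left cerebral cortex. The donors were male B6CASTF1/J mice, an F1 hybrid of the B6 and CAST strains, aged 10 days. The labels give 1 group of 2 biological replicates, whose specimens are numbered as different males, and name no treatment. No other tissue, age or sex was measured, so the levels are described and the 2 libraries are compared with each other.

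A miRNA is cut from the stem of a hairpin precursor, and the 5p and 3p arms of the stem can each give a mature strand. Bases 2 to 8 of the mature strand, the seed, pair with target messenger RNAs and largely set which messages are repressed. Pantothenate kinases catalyse the first step of coenzyme A synthesis from vitamin B5. miR-103 and miR-107 share a seed and are known for repressing Dicer and, in liver and fat, caveolin-1, through which they lower insulin sensitivity.

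The mature strands are shown because the identity of the family at its 3p arm bears on which reads can be told apart. RefSeq (GRCm38.p6) held the hairpin and both arms of all 3 genes. Each strand is written 5′ to 3′ with its seed in capitals.
mmu-miR-103-3p (Mir103-1 and Mir103-2): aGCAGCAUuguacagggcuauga
mmu-miR-107-3p (Mir107): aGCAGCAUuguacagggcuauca
mmu-miR-103-1-5p (Mir103-1): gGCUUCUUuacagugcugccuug
mmu-miR-103-2-5p (Mir103-2): aGCUUCUUuacagugcugccuug
mmu-miR-107-5p (Mir107): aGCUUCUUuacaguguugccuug

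Counting positions from 1 at the 5′ end of the mature strand, the 3p strands of Mir103-1 and Mir103-2 were identical, and both differed from that of Mir107 by 1 substitution, G22C. The 5p strands differed more. Those of Mir103-1 and Mir103-2 differed by G1A, those of Mir103-2 and Mir107 by C16U, and those of Mir103-1 and Mir107 by both. None of these differences lies in a seed. The 3 genes therefore shared the 3p seed GCAGCAU and the 5p seed GCUUCUU, and no other listed gene with a RefSeq mature strand had either. Of the 1018 listed genes with a RefSeq mature strand, 92 shared a whole strand with another listed gene. Mir103-1 and Mir103-2 were among them, and Mir107 was not.

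The whole hairpins show where the family can be separated. Both arms are in capitals.
Mir103-1: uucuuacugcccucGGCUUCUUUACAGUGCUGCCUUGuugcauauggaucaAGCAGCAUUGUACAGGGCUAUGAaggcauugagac
Mir103-2: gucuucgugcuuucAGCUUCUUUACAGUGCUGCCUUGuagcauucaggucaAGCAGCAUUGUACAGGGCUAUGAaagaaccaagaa
Mir107: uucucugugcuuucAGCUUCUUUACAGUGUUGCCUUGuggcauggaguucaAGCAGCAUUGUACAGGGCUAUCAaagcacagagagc

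The arms occupied positions 15 to 37 and 52 to 74 of every hairpin. Mir103-1 and Mir103-2 were identical at 69 of 86 aligned positions (80.2%), with 1 difference in the 5p arm and 0 in the 3p arm. Mir103-1 and Mir107 were also identical at 69 of 86, and Mir103-2 and Mir107 at 73 of 86 (84.9%). The longest stretch shared by the Mir103 hairpins was 27 bases, from position 49 to 75, and it holds the entire 3p arm. Mir107 shared 24 bases with each of them, from position 49 to 72. Most differences fell in the loop and in the outer parts of the stem.

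**Figure D1:**
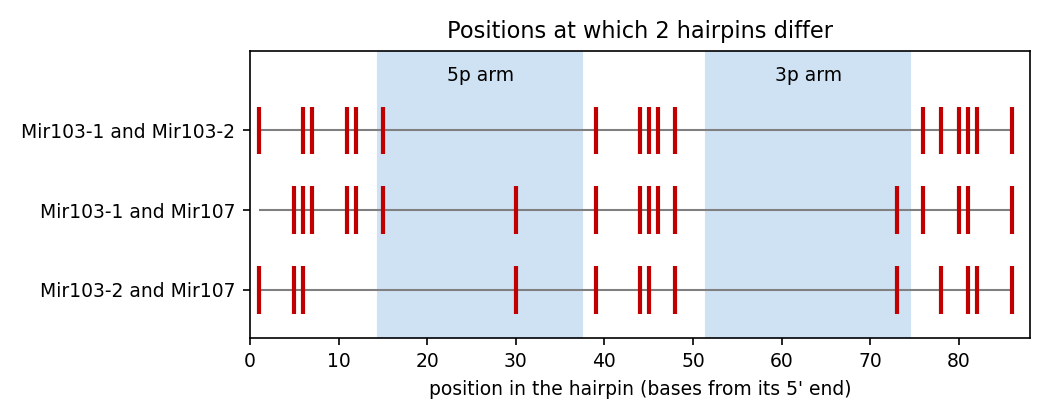
Positions at which each pair of hairpins differs (red marks), along the hairpin in bases from its 5′ end, with the 5p and 3p arms shaded. The 3p arm holds no mark for Mir103-1 and Mir103-2 and 1 mark for each pair with Mir107.

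This sequence identity bears on the counts, since reads mapped to more than 1 place were assigned to no gene. A stretch of 18 to 21 bases from the start of the 3p arm occurred in 3 of the 968 listed hairpins with a RefSeq sequence, those of the family. At 22 or 23 bases the stretch from Mir107 occurred in Mir107 alone, whereas that from either Mir103 gene still occurred in both. From the start of the 5p arm, stretches of 18 to 23 bases were particular to 1 hairpin for each of the 3 genes. For the Mir103 genes this rests on base 1 of the arm, the only base at which their 5p strands differ. Their hairpins were identical from position 16 to 38, so a 5p read that starts 1 base later can match both. A search of 141767 M21 transcripts found the whole strands in no gene outside the family. The counts of Mir103-1 and Mir103-2 thus leave out reads that match miR-103-3p alone, and all 3 counts leave out shorter 3p reads shared by the family. The Mir103 counts also leave out 5p reads without base 1 that match both hairpins. How many mismatches the mapping allowed is not given in the sources used here, and reads were counted per hairpin and not per arm, so the levels below are not levels of mature miR-103 or miR-107.

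Each gene lay on the strand of its host, and no annotated gene overlapped it on the opposite strand. Mir103-1 (ENSMUSG00000065553.1) was at chr11:35782396-35782481 (mm10, plus strand), in intron 5 of Pank3, 688 bases after the upstream exon. Mir103-2 (ENSMUSG00000065563.1) was at chr2:131288052-131288137 (plus strand), in Pank2, 454 bases after the nearest upstream exon and in intron 5 of the protein-coding transcript with 7 exons. Mir107 (ENSMUSG00000065594.1) was at chr19:34820687-34820773 (minus strand), in Pank1, 326 bases after the upstream exon and in intron 5 of both protein-coding transcripts with 7 exons. The number of reads on the opposite strand was 0 for every gene in both libraries.

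Replicate 1 held 2677910 reads assigned to miRNA genes on their own strand and replicate 2 held 1750076, and levels are given as CPM, counts scaled to the same total of these reads. A count of 3 reads corresponded to 1.12 and 1.71 CPM. Unmapped reads made up 25.5% of the first library and 42.4% of the second, and reads mapped to more than 1 place made up 51.2% and 49.2% of mapped reads. In the marker lists for cortex, 11 of 15 neuronal genes reached 2 CPM in both libraries and the list held 4.51% and 3.50% of assigned reads. Mir124a-1, Mir124a-2, Mir124a-3 and Mir9-2 did not, and these are genes that exist in numbered copies. Of 5 striated muscle markers, 4 were at 0 in both libraries, though those have near-identical copies. The other, Mir206, stood at 21.7 and 25.7 CPM. All 3 pancreas markers, all 5 epithelial markers and the liver marker Mir122 (55.6 and 45.1 CPM) also reached 2 CPM in both libraries. In bulk tissue, fewer cells of a type and less RNA per cell cannot be told apart.

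Of the reads assigned to the family, nearly all went to Mir107. Mir107 had 3327 reads in replicate 1 and 7708 in replicate 2. This was 1242 CPM (95% Wilson interval 1201 to 1285) and 4404 CPM (4307 to 4504), on average 2823 ± 2236 CPM (SD, n = 2). It ranked 95th of the 2202 genes in replicate 1 and 40th in replicate 2. Among the 195 detected genes in an intron of a protein-coding gene on its strand, it ranked 23rd by mean CPM, where detected means at least 2 CPM in both libraries.

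Mir103-2 had 108 and 119 reads. These gave 40.3 CPM (33.4 to 48.7) and 68.0 CPM (56.8 to 81.4), a mean of 54.2 ± 19.6 CPM (SD, n = 2). It ranked 253rd in replicate 1 and 229th in replicate 2. Mir103-1, in Pank3, was the lowest with 14 and 23 reads. Its levels were 5.23 CPM (3.11 to 8.78) and 13.1 CPM (8.76 to 19.7), a mean of 9.19 ± 5.60 CPM (SD, n = 2), above the level of 3 reads in both libraries. All 3 genes passed the 2 CPM minimum, as did 442 (20.1%) of all listed genes.

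The order Mir107, Mir103-2, Mir103-1 was the same in both libraries. The lowest value of each gene lay above the highest value of the next, so none of the neighbours in this order overlapped. Both Mir103 hairpins were 86 bases long and that of Mir107 was 87, and division by length changed the ratios little. Length leaves aside that the whole 3p strand is particular to Mir107 but shared by the Mir103 genes. The ratios are those of assigned reads and do not compare the output of the genes. Mir107 had 30.8 times the reads of Mir103-2 in replicate 1 (95% exact binomial interval 25.4 to 37.7) and 64.8 times in replicate 2 (54.0 to 78.3), or 30.5 and 64.0 times per hairpin base. Mir103-2 had 7.71 times the reads of Mir103-1 in replicate 1 (4.40 to 14.6) and 5.17 times in replicate 2 (3.29 to 8.48). The interval of the first ratio did not overlap between the libraries, and that of the second did. Intervals cover counting error only, since amplified reads are not independent molecules.

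**Figure D2:**
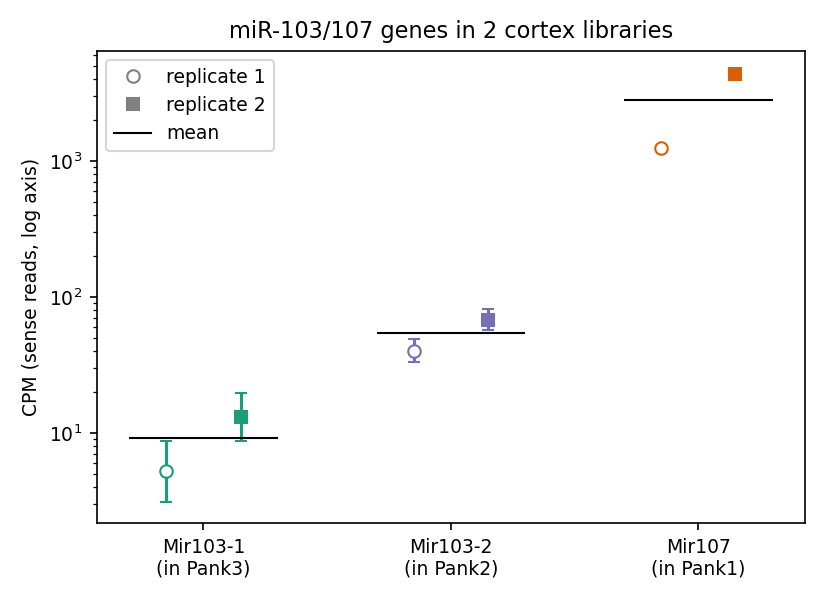
Level of each gene in replicate 1 (open circles) and replicate 2 (filled squares), in CPM of sense reads on a log axis, with 95% Wilson intervals and the mean as a black line. Mir107 sits between 1242 and 4404 CPM and both Mir103 genes lie below 100 CPM.

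Together the family held 0.129% (replicate 1) and 0.449% (replicate 2) of assigned reads, on average 0.289% ± 0.226 (SD, n = 2). Mir107 supplied 96.5% of the 3449 reads assigned to the family in replicate 1 (Wilson 95.8 to 97.0) and 98.2% of 7850 in replicate 2 (97.9 to 98.5). The share of Mir103-2 within the family was 3.13% (2.60 to 3.77) and 1.52% (1.27 to 1.81), and that of Mir103-1 was 0.406% (0.242 to 0.680) and 0.293% (0.195 to 0.439). The composition thus leaned further to Mir107 in replicate 2, while the share of Mir103-1 had overlapping intervals. This composition covers assigned reads only. The whole 3p strand is particular to Mir107 but shared by the Mir103 genes, so the shares are not those of the mature strands.

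The libraries differed at this family. Each gene was tested with Fisher's exact test (two-sided) against the remaining assigned reads, with Benjamini-Hochberg adjustment over all 542 genes at 2 CPM or more in either library. A call required an adjusted p below 0.05 together with a size of at least 1 for the log2 ratio of replicate 2 over replicate 1. By this rule 65 genes (12.0%) were called, 31 (5.72%) higher and 34 (6.27%) lower in replicate 2. Within the family, 2 of 3 genes were called, both higher in replicate 2. The test compares these 2 libraries and says nothing of other animals.

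Mir107 was 3.55-fold higher in replicate 2 (95% exact binomial interval 3.40 to 3.69), a log2 ratio of 1.83, and its Fisher p was too small for the software to represent. The median log2 ratio of all tested genes was -0.09. Of the 542 tested genes, 26 had a higher log2 ratio than Mir107. Among the 105 genes averaging at least 1000 CPM, only Mir298 (2.11) and Mir222 (1.91), named after their values were seen, had a higher log2 ratio. Mir103-1 was 2.51-fold higher (1.24 to 5.28), with a log2 ratio of 1.31 and an adjusted p of 0.0167 in Fisher's exact test, from 14 and 23 reads. Mir103-2 was 1.69-fold higher (1.29 to 2.21), with a log2 ratio of 0.75 and an adjusted p of 0.000336 in Fisher's exact test. Its ratio was under the minimum, so it was not called.

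All 3 genes had higher CPM in replicate 2, as did 241 (44.5%) of the 542 tested genes. The interval of the ratio of Mir107 lay above that of Mir103-2 and inside that of Mir103-1, and the difference between these ratios was not tested. When all mapped reads, including those mapped to more than 1 place, served as the total, Mir107 was 3.67-fold higher in replicate 2. Of the 249 tested genes in an intron on the strand of a protein-coding gene, 20 (8.03%) were called higher in replicate 2, and Mir107 ranked 18th of the 249 by log2 ratio.

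**Figure D3:**
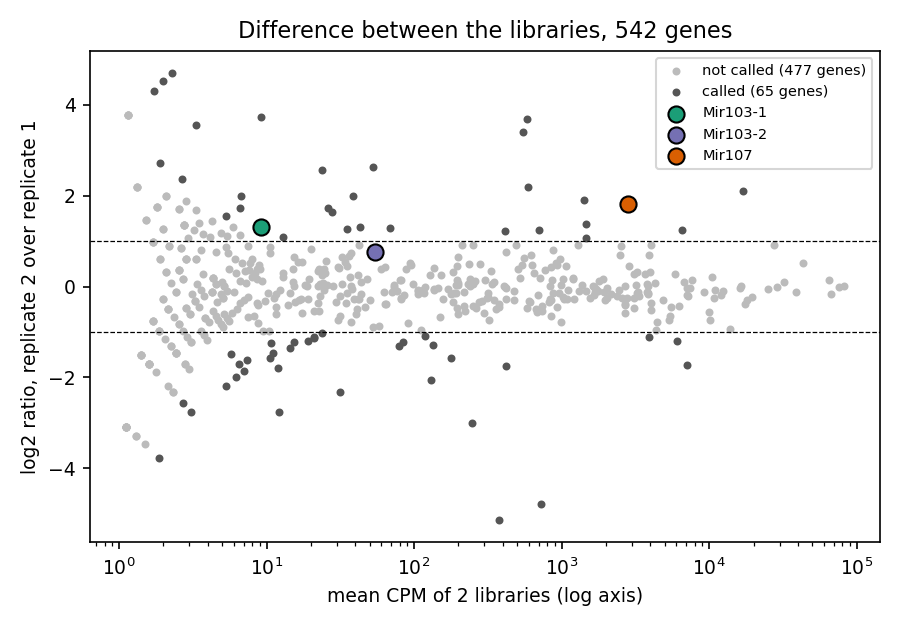
Log2 ratio of replicate 2 over replicate 1 against mean CPM (log axis) for the 542 tested genes, with called genes dark, the others light, dashed lines at the minimum ratio and the family in colour. Mir107 (1.83) and Mir103-1 (1.31) lie above the upper line and Mir103-2 (0.75) below it.

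The summed level of some marker lists also differed between the libraries. The 15 cortex neuron markers, 11 of them detected, summed to 45148 CPM in replicate 1 and 35008 CPM in replicate 2. Their median log2 ratio was -0.55. Of these, Mir153 (441 and 54.9 CPM) and Mir9-3 (log2 ratio -1.08) were called lower in replicate 2. Mir132 (log2 ratio 1.25) was called higher, and 12 were not called. The choroid plexus and ependyma markers, 3 of 5 detected and none at 0 in both libraries, summed to 1120 CPM in replicate 1 and 2766 CPM in replicate 2. Among them Mir34c (93.4 and 993 CPM), Mir449a and Mir34b were called higher in replicate 2. Mir204 (log2 ratio 0.60) was not called, and Mir211 stood at 1.12 and 1.14 CPM. The 3 oligodendrocyte markers, all detected, summed to 834 and 1423 CPM, but none of them was called, and Mir219a-1 had a log2 ratio of -0.28. The sum of the 3 erythroid markers, also all detected, was 814 and 56.6 CPM. In replicate 1 most of it was Mir451a (737 CPM, against 20.6 CPM in replicate 2). Mir451a and Mir144 were called lower in replicate 2, whereas Mir486 stood at 25.4 and 25.7 CPM, the highest of the 3 in replicate 2. The part of these cell types, and of the larger share of unmapped reads in replicate 2, in the difference at Mir107 was not tested.

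The genes with levels most like those of the family were found by the Euclidean distance in log2(CPM + 1) over the 2 libraries. For Mir107 they were Mir221 (1782 and 3303 CPM, distance 0.67), Mir187 (1900 and 3075 CPM, 0.80) and Mir98 (2416 and 3291 CPM, 1.05). Each of these was higher in replicate 2, by less than Mir107. For Mir103-2 they were Mir5099 (0.37), Mir574 (0.44) and Mir494 (0.44), and for Mir103-1 they were Mir6986 (0.40), Mir193a (0.45) and Mir7026 (0.47). With 2 libraries, such likeness says only that the levels are close.

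The Mir103 pair was compared with other genes that exist in numbered copies. Of 43 groups of 2 copies, 20 had both copies detected. Mir103-2 exceeded Mir103-1 by 5.90-fold in mean CPM, the seventh highest of the 20 ratios, which ran from 1.15 to 106.6 with a median of 3.12. The higher copy was the same in both libraries in 18 groups, the Mir103 pair among them. By the summed mean CPM of both copies, the Mir103 pair was 19th of the 20 groups at 63.3 CPM, against a median of 567 CPM. Reads common to both copies are left out in each group to a degree that depends on its sequence, so these ranks do not order the mature miRNAs.

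**Figure D4:**
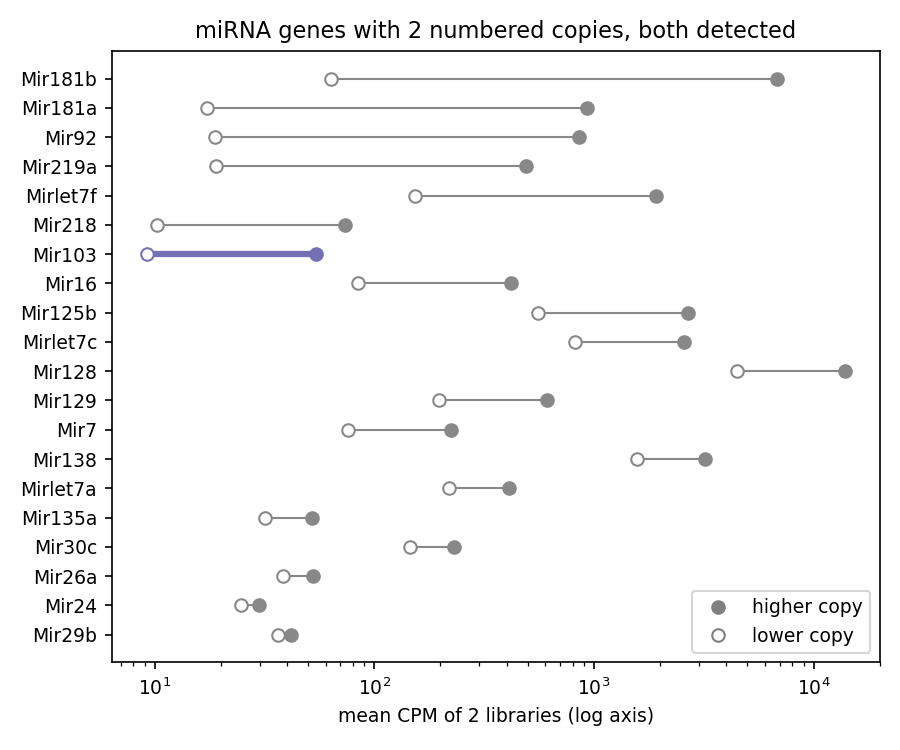
Mean CPM of the higher copy (filled) and the lower copy (open) on a log axis, for the 20 groups of 2 numbered miRNA genes with both copies detected, ordered by their ratio. Mir103 (thick purple line) is seventh from the top, with 54.2 and 9.19 CPM, near the low end of the axis.

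The seed of miR-103 and miR-107 overlaps that of the miR-15/16 family, which restrains cell division, with an offset of 1 base. Bases 1 to 7 of the miR-103 and miR-107 3p strands, AGCAGCA, are bases 2 to 8 of these strands, shown with their seeds in capitals.
mmu-miR-15a-5p: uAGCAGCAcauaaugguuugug
mmu-miR-16-5p: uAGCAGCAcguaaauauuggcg
mmu-miR-195a-5p: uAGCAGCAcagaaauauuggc
mmu-miR-322-5p: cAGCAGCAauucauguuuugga

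In RefSeq, 11 listed genes had AGCAGCA as their seed, and 7 of them were detected. The list for this family held 10 genes, of which 8 were detected and Mir195b and Mir497b had 0 reads. It includes Mir503 and Mir497b, which are not among the 11. Mir322 was its highest member at 2293 and 2060 CPM in replicates 1 and 2, above Mir107 in replicate 1 and below it in replicate 2. Mir195a reached 989 ± 369, Mir497 957 ± 71.5, Mir15b 871 ± 336 and Mir15a 632 ± 145 CPM (SD, n = 2). Mir16-1, Mir503 and Mir16-2 reached 417 ± 320, 88.3 ± 16.6 and 84.3 ± 48.1 CPM, and the first and last of these share miR-16-5p.

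Between the libraries, none of the 8 tested genes of this list was called higher in replicate 2 and 2 were called lower, against 5.72% and 6.27% of all genes. The 2 were Mir16-1 (log2 ratio -1.75) and Mir16-2 (-1.23). The median log2 ratio of the list was -0.15, beside -0.09 for all genes. Mir15b (0.81), Mir15a (0.47) and Mir503 (0.39) had positive ratios under the minimum.

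**Figure D5:**
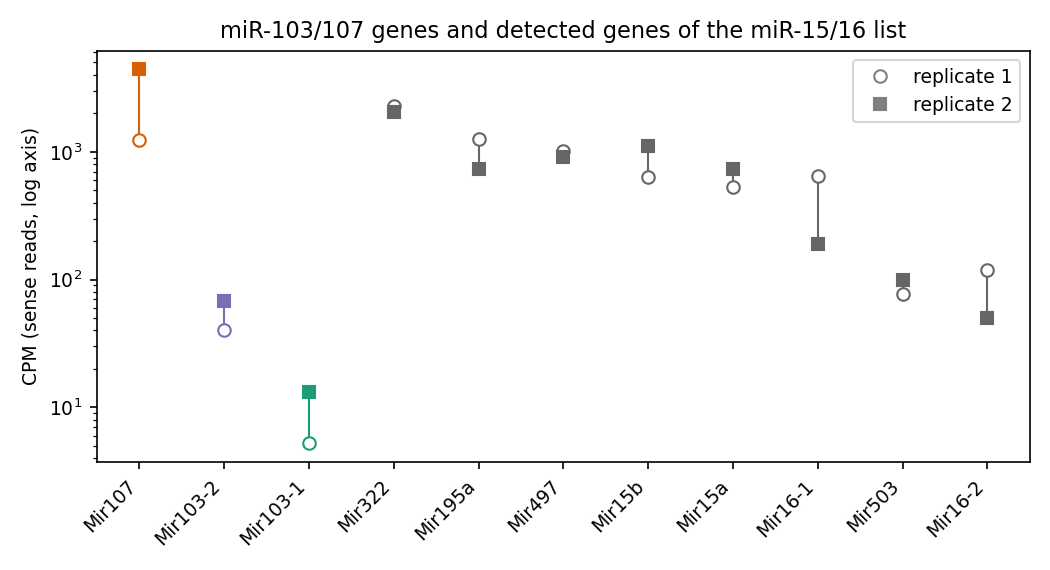
CPM (log axis) in replicate 1 (open circles) and replicate 2 (filled squares) for the miR-103 and miR-107 genes, in colour, and the 8 detected genes of the miR-15/16 list, in grey. The squares of Mir107, Mir103-2 and Mir103-1 lie above their circles. So do those of Mir15b, Mir15a and Mir503, whereas those of the other grey genes, Mir16-1 and Mir16-2 among them, lie below.

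A list of 20 other miRNA genes known for roles in glucose and lipid metabolism was examined beside the family. Of these, 18 were detected and 1 of the 18 was called, higher in replicate 2, beside 5.72% of all tested genes, a share near that background. It was Mir21a, which overlaps an exon of Vmp1 (808 and 2106 CPM, log2 ratio 1.38), named after its value was seen. The most abundant were Mir130a at 5553 ± 1241, Mir378a at 4305 ± 147, Mir143 at 3847 ± 36.2 and Mir93 at 3794 ± 118 CPM (SD, n = 2). Of these, Mir378a lies in an intron of the coactivator gene Ppargc1b. Mir378a, like Mir107 an intronic gene in a metabolic host, stood at 4201 and 4409 CPM in replicates 1 and 2, with a log2 ratio of 0.07. In replicate 2 it was close to Mir107, and in replicate 1 it was well above it. The median log2 ratio of the 18 tested genes of the list was 0.12.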

How the data were processed

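The deposited values are the authors' raw counts of reads for each miRNA gene, 1 library per file, against assembly mm10 and annotation M21 per the labels and readme text. The aligner and counter are not named in these sources. Of the 3 count columns, whose values show unstranded, sense and antisense reads, the sense column was used. Library sizes leave out the 4 rows without a gene name, which hold 70.5% and 76.5% of reads. All 2202 identifiers matched M21.

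The library comparison used Fisher's exact test across all genes at 2 CPM or more in either library, with 0.5 reads added for log2 ratios, since 1 group leaves no spread for a contrast between conditions. Scaling alternatives came from edgeR 4.0.16 (TMM) and DESeq2 1.42.0 in R 4.3.3. The rest used Python 3.11.15, scipy 1.17.1 and pandas 2.3.3. The test was tried on simulated counts with known changes. These held counting error only, so the trial does not cover other variation between libraries. Sequences are from RefSeq. CAST alleles that differ from mm10 were not considered. The genes and lists were chosen with earlier results of these data known. Named were the family, the 3 nearest genes of each, the detected genes of the miR-15/16 list and the 4 most abundant of the metabolic list.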

Additional observations from a re-analysis of the deposited data

How the results depend on the processing

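Mir107 and Mir103-1 were called higher in replicate 2 under all 8 alternatives to the library test, with log2 ratios of 1.82 to 1.92 and 1.29 to 1.40. Not all of these were strong checks, since removing the minimum on the ratio can only add calls. Adding 1 read in place of 0.5 changes the log2 ratio and leaves the Fisher p as it was. The log2 ratio of Mir103-2 was 0.74 to 0.84, and it was called only without the minimum on the ratio (0.75), where 229 genes were called in place of 65. With all mapped reads as the total, by construction all levels were lower: Mir107 averaged 1146, Mir103-2 21.9 and Mir103-1 3.72 CPM, and the family held 0.117% of reads. Each mean rests on 2 libraries: without replicate 1 the level of Mir107 was 4404 CPM and without replicate 2 it was 1242 CPM, and the ratio of Mir107 to Mir103-2 was 64.8 and 30.8. The unstranded counts gave the same reads for all 3 genes. The counts of 14 and 23 reads limit the precision for Mir103-1. No paired analysis was possible because there is 1 group.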
